A study of Mus musculus with 6 samples.

Results

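The TGF-beta, BMP and activin pathway was followed through 44 genes, chosen by symbol from the 26264 genes listed in each library, and all 44 were listed. They comprised 5 genes for TGF-beta ligands and the proteins that keep them latent, 4 TGF-beta receptors, 7 BMP and GDF ligands, 4 BMP receptors, 2 activin subunits, 3 activin receptors, 7 antagonists and other secreted or membrane modulators, 6 receptor-activated and common SMADs, 2 inhibitory SMADs and 4 ID genes. Ligands of this superfamily bind complexes of type I and type II serine/threonine kinase receptors, which phosphorylate SMAD2 and SMAD3 for TGF-beta and activin, and SMAD1, SMAD5 and SMAD9 for BMPs. The phosphorylated SMADs join SMAD4 in the nucleus and regulate target genes, of which the ID genes are classical BMP targets that encode inhibitors of basic helix-loop-helix transcription factors. In adipose tissue, TGF-beta and activin are known to restrain adipocyte differentiation, whereas BMP4 and BMP7 are known to promote commitment of precursors to the adipocyte lineage, BMP7 in particular to the brown one.

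The cells were brown preadipocytes of the stromal vascular fraction from wild-type Bl6N mice (iBAT), immortalized with SV40 large T antigen, and they were studied by bulk RNA sequencing in 6 libraries with 1 library per condition. Before differentiation they had received FGF8, a paracrine fibroblast growth factor, at 5.5 nM for 48 h, or had been left untreated (the methods speak of vehicle). They were collected directly (day 0), after 2 days of induction and 1 day on differentiation medium (day 3), or after 2 days of induction and 7 days on differentiation medium (day 9, which the sample names call D7). FGF8 was absent from the medium after day 0, so day 3 and day 9 compare cells with a past exposure. All 6 libraries carry the same genotype and the same immortalization, and the sources do not say whether the conditions came from separate cultures. A growth protocol in the sample records speaks of primary white cells, but the titles name immortalized brown ones and were followed.

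The libraries held between 16403254 and 38551551 counts. Normalized counts are counts divided by median-of-ratios size factors, and values are given in the order of days 0, 3 and 9 throughout. Summed over the pathway, CPM (counts scaled to the library total) were 7091, 3836 and 2337 in the untreated libraries and 3713, 1919.6 and 1418 in the FGF8 libraries, and Fstl1 alone held 57.3% of the pathway counts in the untreated library of day 0. The 6 preadipocyte markers (Pdgfra, Pdgfrb, Cd34, Ly6a, Dlk1 and Ebf2) were above 3 counts in all 6 libraries. Their summed level was 132446, 40997 and 33975 normalized counts in the untreated libraries and 31766, 15429 and 13674 in the FGF8 libraries. Of its members, 5 were lower after FGF8 on each day, and Ebf2 was higher on each day, at 2315, 3412 and 4246 normalized counts in untreated and 2500.3, 5175 and 6805 in FGF8 cells. The 6 adipocyte markers summed to 8840, 350180 and 477181 in the untreated libraries and to 2491, 602419 and 549817 in the FGF8 libraries, so the cells labelled adipocytes carried their markers. The brown adipocyte list summed to 413, 2106 and 31305 in the untreated libraries and to 299.6, 4671 and 48879 in the FGF8 libraries. Its member Cidea was at 0 counts in both libraries of day 0 and reached 23470 and 37734 normalized counts on day 9 in untreated and FGF8 cells. Cidea thus made up most of the sums of day 9. Dio2 of the same list ran the other way over time, with 304, 2.55 and 26.3 normalized counts in untreated and 60.2, 12.6 and 18.7 in FGF8 cells. The macrophage list summed to between 138 and 306 normalized counts, with a lower sum in the FGF8 library on each day. Its member Cd68 ran the other way on days 3 and 9, at 91.3 and 100.8 normalized counts after FGF8 against 81.5 and 100.1. Ptprc was detected only in the FGF8 library of day 0 (1.28 normalized counts), and the defining marker Adgre1 was at 0 counts in all 6 libraries. The endothelial list summed to 1630 normalized counts in the untreated library of day 0 and to 213 or fewer elsewhere, with Tie1 at 0 counts in 5 libraries. The smooth muscle and myofibroblast list summed to 4457, 5600 and 2965 in the untreated libraries and to 844, 1581 and 2715 in the FGF8 libraries. Its members Acta2 and Tagln were lower in the FGF8 library on each day, and Des was higher on each day. Myh11 was higher after FGF8 on day 0 (21.8 against 16.2 normalized counts), and Cnn1 on day 9 (30.1 against 23.4). Tgfb2, Tgfb3, Ltbp2, Tgfbr2, Bmp4, Bmp6, Acvr1, Inhba, Acvr1b, Acvr2a, Fstl3 and Smad4 overlap a listed gene on the opposite strand and Bmpr2 overlaps another gene model on its own strand. The strand setting of the counting is not given in the sources used here, so reads of such pairs may not have been told apart.

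**Figure D1:**
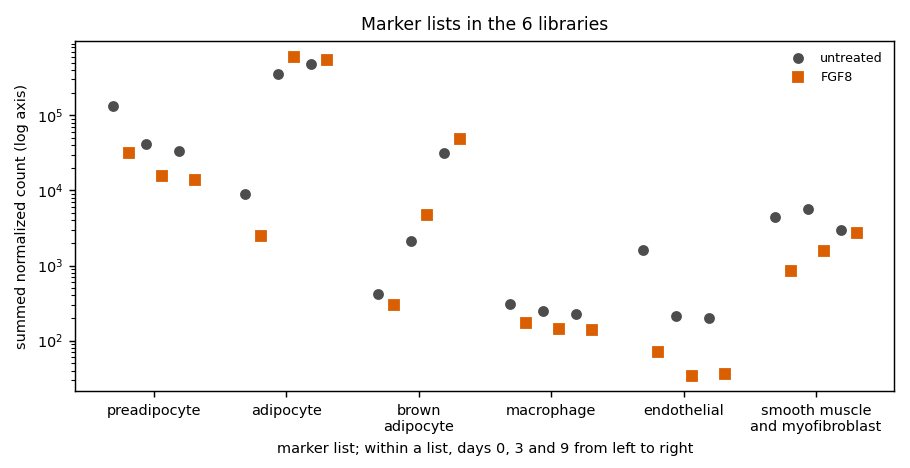
Summed normalized count (log axis) of 6 marker lists in the untreated (grey circles) and FGF8 (orange squares) libraries, 1 library per point, with days 0, 3 and 9 from left to right within each list. The sum of the preadipocyte list was lower in the FGF8 library on each of the 3 days, and the adipocyte list was higher on days 3 and 9.

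The levels of the 44 genes spanned a wide range. Compared per kilobase of exon, Fstl1 led with a mean of 2981 normalized counts per kb over the 6 libraries, followed by Id3 with 1164, Tgfbr3 with 929, Tgfbr2 with 598 and Bmpr1a with 533. Most receptors and SMADs ranked above the BMP and GDF ligands. Bmp7 had at most 2 counts in any library and Nog, which encodes the BMP antagonist noggin, at most 4. Gdf6 had at most 7 counts and Fstl3 at most 24. In the heat map of levels, the dark block of BMP and GDF ligands contrasts with the uniform rows of Bmpr1a, Bmpr2, Smad2, Smad4 and Smad5.

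**Figure D2:**
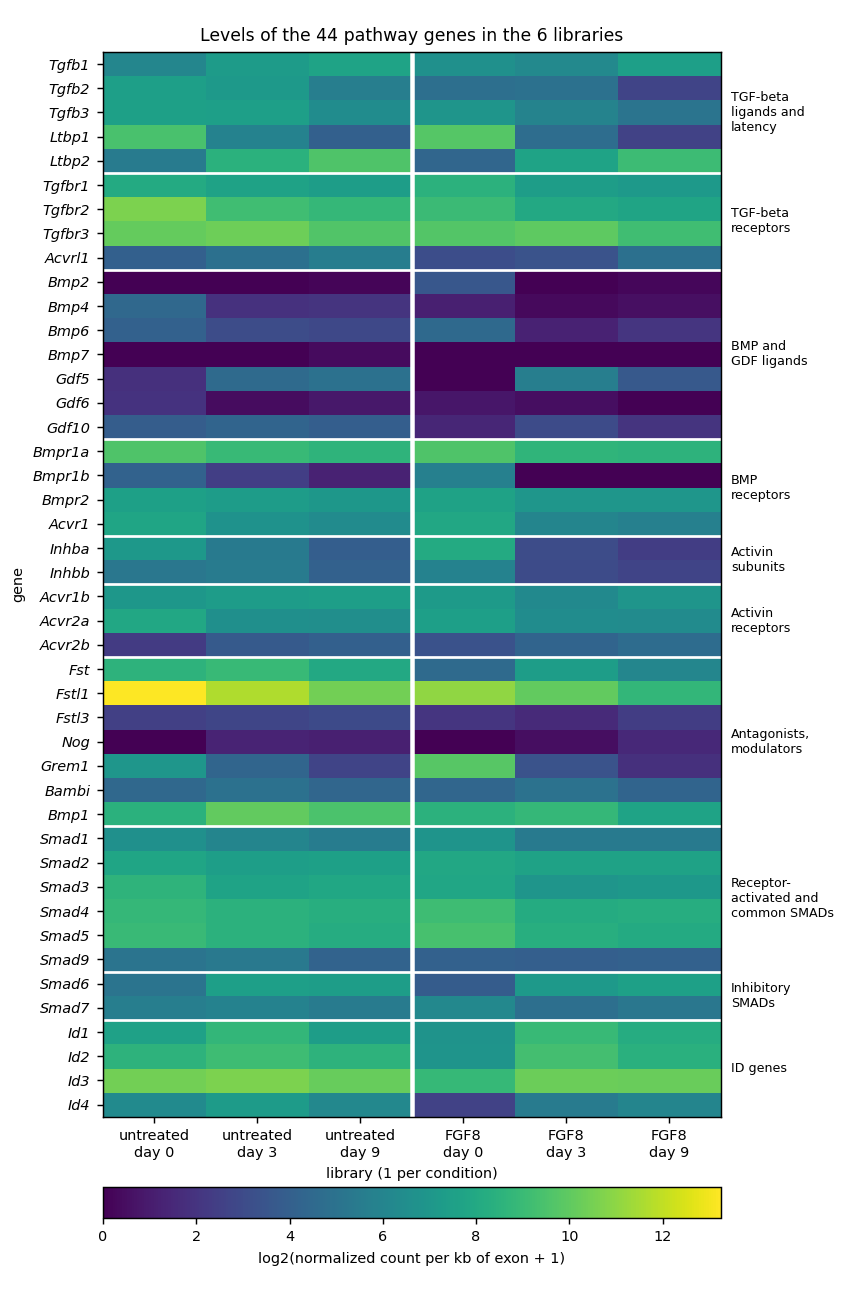
Heat map of log2(normalized count per kb of exon + 1) for the 44 genes (rows, grouped by role) in the 6 libraries (columns, 1 library per condition). Fstl1 is the brightest row, Bmp2 is detected almost exclusively in the FGF8 library of day 0, and Ltbp1 and Ltbp2 run in opposite directions from day 0 to day 9.

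How the pathway differed between FGF8 and untreated cells was asked for each day separately. A gene was counted as different when log2(normalized count + 1) differed by at least 2-fold and the pair of libraries averaged 20 normalized counts or more. Directly after FGF8, 39 of the 44 genes passed that minimum, 5 of them were at least 2-fold higher (Acvr2b, Bmp2, Bmpr1b, Grem1 and Inhba) and 11 were at least 2-fold lower (Tgfb2, Ltbp2, Tgfbr2, Bmp4, Gdf10, Fst, Fstl1, Smad6, Id2, Id3 and Id4). Over all genes tested on day 0, 7.27% were at least 2-fold higher and 10.8% at least 2-fold lower. On day 3, 36 genes passed, only Gdf5 was higher, and 16 were lower (Tgfb1, Tgfb2, Tgfb3, Ltbp1, Tgfbr2, Acvrl1, Gdf10, Inhba, Inhbb, Acvr1b, Fst, Fstl1, Bmp1, Smad9, Smad7 and Id4), against 3.8% higher and 12.1% lower among all genes. By day 9, 35 genes passed, 0 were higher, and 11 were lower (Tgfb2, Tgfb3, Ltbp1, Tgfbr2, Gdf5, Gdf10, Inhba, Inhbb, Fst, Fstl1 and Bmp1), against 1.12% and 8.74% among all genes. The median log2 fold change of the pathway genes that passed was 0.028 on day 0, -0.75 on day 3 and -0.27 on day 9, beside medians of 0.054, 0.081 and 0.083 over all genes. A log2 fold change below 0 was held by 19 of the 39 genes on day 0, 30 of the 36 on day 3 and 30 of the 35 on day 9. Among all genes that passed, 5808 of 12657, 5738 of 12892 and 5330 of 13070 lay below 0 on these days.

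The 5 genes that did not pass on day 0 were Bmp7, Gdf5, Gdf6, Fstl3 and Nog, and Gdf5 passed on days 3 and 9. Bmp2, Bmp4, Bmp6 and Bmpr1b were under the minimum on days 3 and 9, and Grem1 on day 9. Tgfb2, Tgfbr2, Gdf10, Fst and Fstl1 stood at least 2-fold lower on each of the 3 days, which is 14.7% of the 34 pathway genes that passed on every day and 3.49% of the 11813 such genes overall. Inhba was the single pathway gene that was at least 2-fold higher on day 0 and at least 2-fold lower later, or 2.94% of the number passing on every day. Among all 26264 genes, 110 had that pattern, or 0.931% of the number passing on every day. With 1 library per condition there is no replicate error, and the intervals given below are 95% exact binomial (Clopper-Pearson) intervals of the ratio of both counts, on the log2 scale, that cover counting error only. In bulk RNA, fewer cells of a type and less RNA per cell cannot be told apart. The summed preadipocyte list (5 of its 6 members) was lower in FGF8 libraries together with these genes. On days 0 and 3 so was the summed smooth muscle list, but not its members Des on both days and Myh11 on day 0. The part of both lists in the result was not tested.

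**Figure D3:**
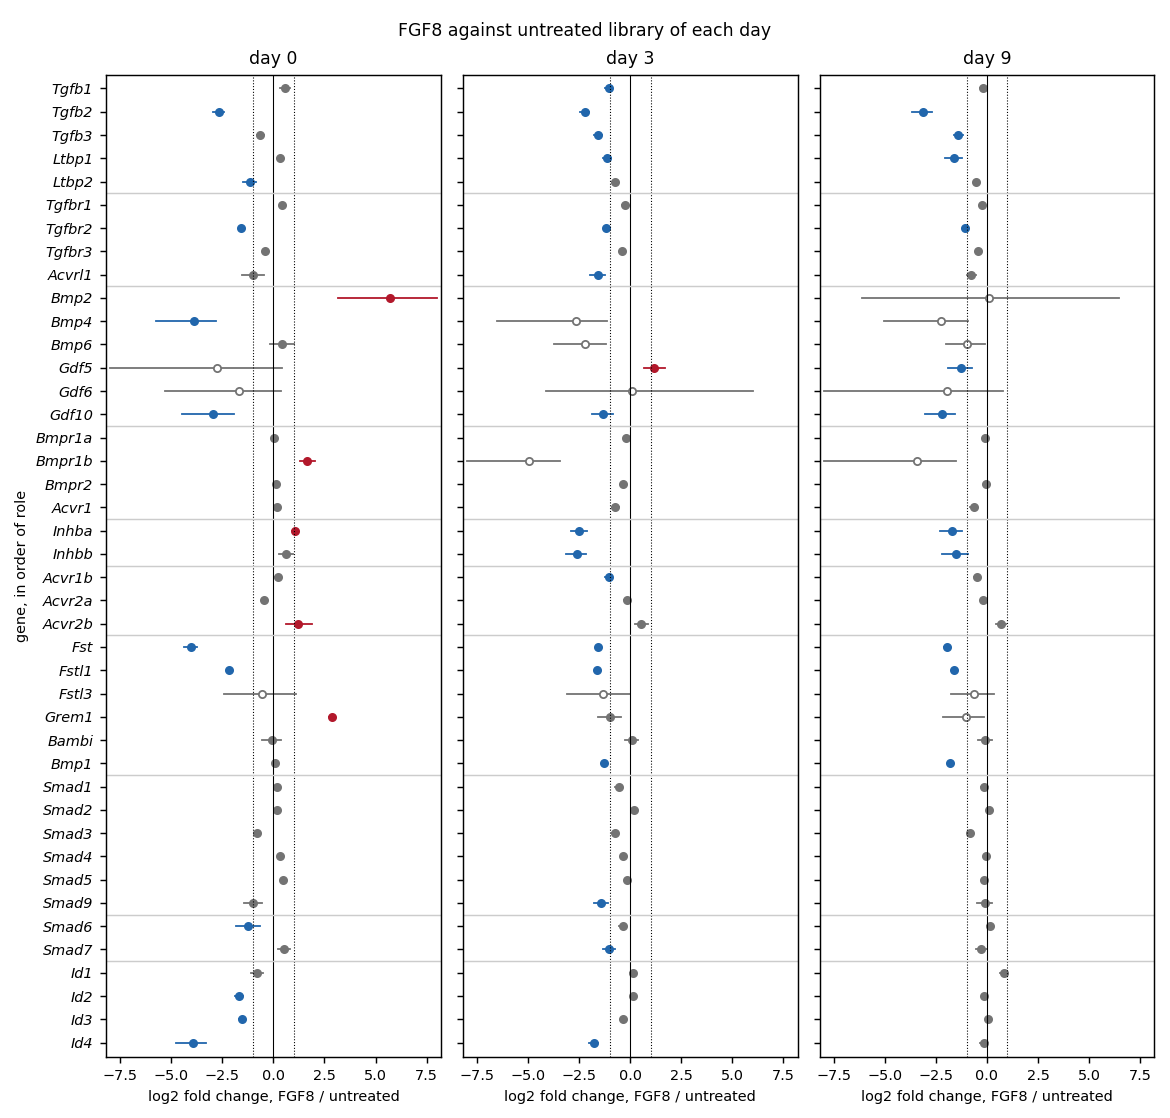
Log2 fold change of FGF8 against the untreated library on days 0, 3 and 9 (panels) for the pathway genes with more than 4 counts in a library, in order of role, with 95% counting intervals as horizontal lines, drawn to the edge of the axis where they extend further. Red points were at least 2-fold higher, blue points at least 2-fold lower, grey points within 2-fold, open points lay under the minimum mean of 20 normalized counts, a gene without a count on a day has no point, and dotted lines mark 2-fold. Points lie on both sides of 0 on day 0 and mostly to the left of 0 on days 3 and 9.

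Promoters are shown for the 3 ID genes that were at least 2-fold lower together on day 0, as classical SMAD targets, and for Inhba and Grem1, a ligand subunit and an antagonist that were higher, so that the sequence upstream of each can be read beside its values. The windows are the 250 bases before the annotated start in RefSeq on GRCm38.p6, an older build than that of the counts, read 5′ to 3′ on the strand of the gene. They lie at chr12:25096093-25096342 (minus strand) for Id2, chr4:136143572-136143821 (plus) for Id3, chr13:48260866-48261115 (plus) for Id4, chr13:16011601-16011850 (plus) for Inhba and chr2:113758649-113758898 (minus) for Grem1. Capitals mark matches, on either strand, to CAGAC, the core of the SMAD box, and to GGCGCC, a GC-rich SMAD motif.
Id2: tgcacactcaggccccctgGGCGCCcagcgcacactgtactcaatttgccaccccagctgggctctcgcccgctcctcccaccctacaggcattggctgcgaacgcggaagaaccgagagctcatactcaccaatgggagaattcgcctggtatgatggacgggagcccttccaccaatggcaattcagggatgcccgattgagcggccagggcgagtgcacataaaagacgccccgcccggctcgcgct
Id3: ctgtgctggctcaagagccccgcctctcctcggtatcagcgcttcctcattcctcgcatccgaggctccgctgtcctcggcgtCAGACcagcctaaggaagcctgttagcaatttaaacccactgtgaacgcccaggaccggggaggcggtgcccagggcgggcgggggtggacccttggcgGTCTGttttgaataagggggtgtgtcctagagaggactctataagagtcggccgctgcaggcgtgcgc
Id4: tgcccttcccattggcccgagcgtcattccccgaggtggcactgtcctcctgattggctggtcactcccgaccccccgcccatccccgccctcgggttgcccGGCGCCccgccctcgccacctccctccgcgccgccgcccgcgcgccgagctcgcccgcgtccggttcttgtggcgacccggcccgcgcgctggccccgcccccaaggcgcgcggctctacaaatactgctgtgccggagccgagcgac
Inhba: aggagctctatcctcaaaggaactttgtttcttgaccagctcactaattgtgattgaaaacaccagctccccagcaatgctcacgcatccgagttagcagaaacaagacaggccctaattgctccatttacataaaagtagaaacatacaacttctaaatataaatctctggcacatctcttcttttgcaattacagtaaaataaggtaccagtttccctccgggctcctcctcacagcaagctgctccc
Grem1: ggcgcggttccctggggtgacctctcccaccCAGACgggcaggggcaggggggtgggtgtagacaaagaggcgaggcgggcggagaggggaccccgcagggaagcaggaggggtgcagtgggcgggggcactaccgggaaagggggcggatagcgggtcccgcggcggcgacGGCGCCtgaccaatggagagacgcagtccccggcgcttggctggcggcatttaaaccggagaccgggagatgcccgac
The table held 29 of the 44 genes, and Tgfb3, Tgfbr3, Acvrl1, Bmp2, Bmp7, Gdf5, Gdf6, Fst, Nog, Bambi, Bmp1, Smad2, Smad4, Smad7 and Id1 were not in it. A gene was counted when any of its windows held a match, and Bmpr1b, Ltbp1, Smad5 and Tgfbr1 had several windows. Counted in that way, CAGAC was present in 14 of the 29 genes and in 45.8% of all 27025 genes of the table, and GGCGCC in 8 of the 29 and in 10.8% of all genes. TGANTCA, the AP-1 motif, occurred in 0 of the 29 and in 7.82% of all genes, and TGACGTCA, the CRE motif, in 1 of the 29 (Ltbp1) and in 1.77% of all genes. Per window, the shares over all 32851 windows were 42.2%, 9.59%, 6.75% and 1.55%. The Id2 and Id4 windows each held GGCGCC, Id3 held CAGAC on both strands, Grem1 held both motifs, and Inhba held none of them. The Inhba window had 43.2% G and C, below the median of 52.4% over all windows, whereas the windows of Id2 and Id3 had 62.8% and that of Id4 75.6%. These matches are descriptions of the letters in the windows.

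Among the TGF-beta ligands and their latency proteins, Tgfb2 was far lower after FGF8 at every time point. TGF-beta ligands are secreted bound to a latency peptide, and LTBP1 tethers that complex to the matrix. Tgfb2 (chr1:186354985-186438294 on GRCm39) had 1125, 891 and 314 normalized counts in the untreated libraries and 175, 188 and 35.0 in the FGF8 libraries. Each FGF8 library therefore lay under every untreated library, and log2 fold changes came to -2.67 (95% interval -2.95 to -2.42) on day 0, -2.24 (-2.45 to -2.04) on day 3 and -3.13 (-3.65 to -2.71) on day 9. Tgfb3 had 969, 920.2 and 450.0 normalized counts in the untreated libraries and 616, 308 and 169.9 in the FGF8 libraries. It was 1.57-fold lower on day 0, within the 2-fold rule, and 2.99-fold and 2.65-fold lower on days 3 and 9. Tgfb1, the most widely expressed isoform, behaved otherwise, with 333, 780.2 and 1030.0 normalized counts in the untreated libraries and 499, 378 and 891 in the FGF8 libraries. It was 1.497-fold higher directly after FGF8, 2.06-fold lower on day 3 and 1.16-fold lower on day 9, and only the value of day 3 reached 2-fold.

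The latency proteins ran in opposite directions over time in both treatments. Ltbp1 had 7443, 613 and 169.7 normalized counts in the untreated libraries and 9165, 275 and 54.5 in the FGF8 libraries. It differed by 1.23-fold between the libraries of day 0, and on days 3 and 9 the FGF8 library was 2.23-fold and 3.11-fold lower than the untreated one. Ltbp2, a matrix protein of the same family that does not bind latent TGF-beta, had 367, 2831 and 6246 normalized counts in the untreated libraries and 163, 1689.6 and 4368 in the FGF8 libraries. Both series had their lowest value on day 0 and their highest on day 9, and the FGF8 library was lower on each day, by 2.26-fold, 1.68-fold and 1.43-fold. Of the 5 genes in this group, 2 were at least 2-fold lower on day 0, then 4 on day 3 and 3 on day 9. No member of the group was at least 2-fold higher on any day.

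**Figure D4:**
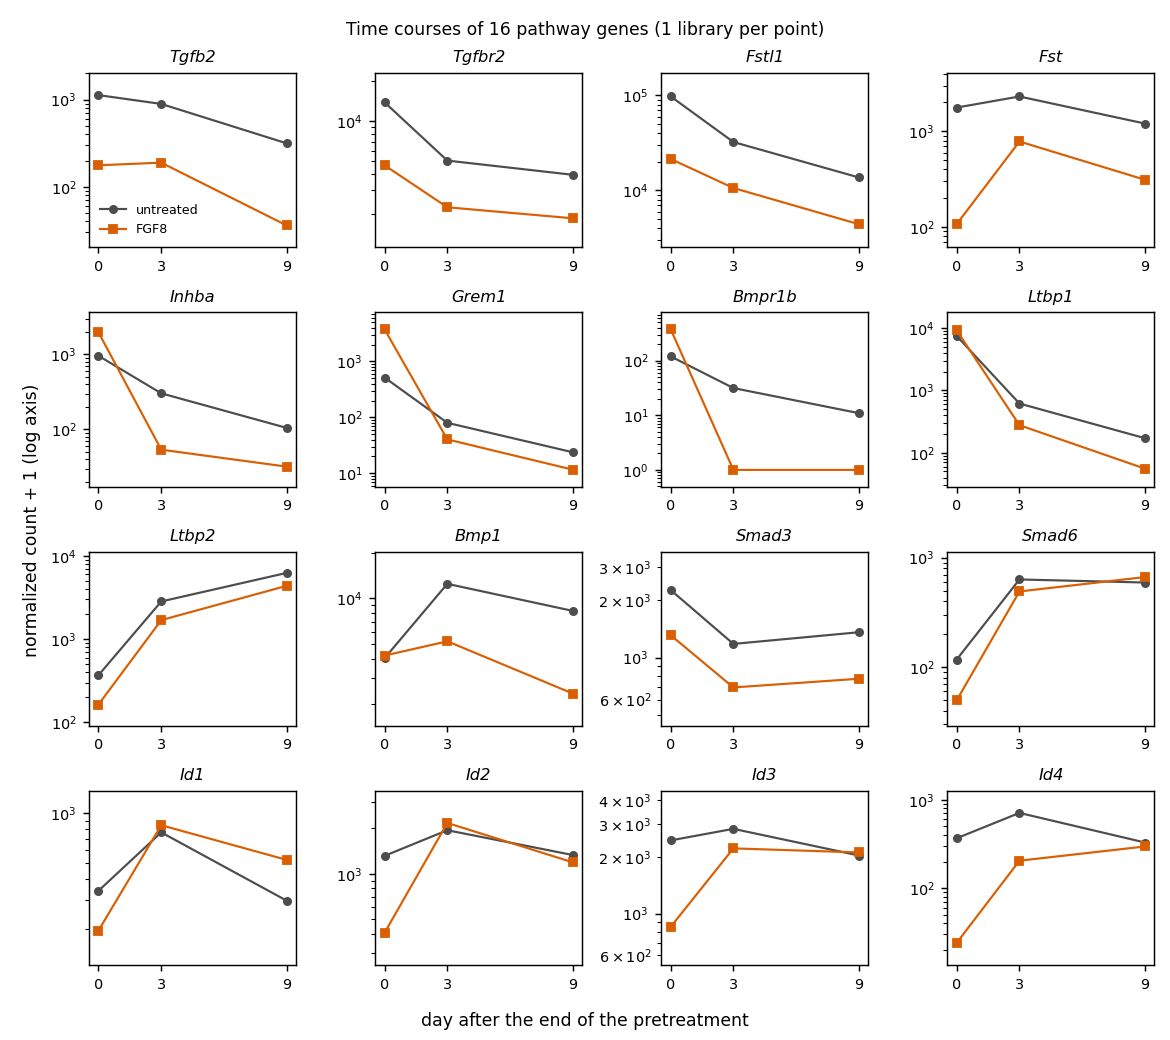
Time courses of 16 pathway genes as normalized count + 1 (log axis, scaled for each gene) against day after the end of the pretreatment, for the untreated (grey circles) and FGF8 (orange squares) series, 1 library per point. Tgfb2, Tgfbr2, Fstl1 and Fst stay apart on all 3 days, the lines of Inhba, Grem1, Bmpr1b and Ltbp1 cross after day 0, and those of Id2 and Id3 lie close on days 3 and 9.

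Of the TGF-beta receptors, the type II receptor Tgfbr2 was lower after FGF8 on all days. The type I receptor Tgfbr1 differed by less than 1.5-fold, and Acvrl1, another type I receptor, was lower on each day. Tgfbr2 (chr9:115913361-116004800), which binds the ligand and activates the type I receptor, had 13895, 5034 and 3929 normalized counts in the untreated libraries and 4639.5, 2231 and 1841 in the FGF8 libraries. The FGF8 value of day 0 was close to the untreated value of day 3. The log2 fold changes were -1.58 (-1.64 to -1.53), -1.17 (-1.24 to -1.11) and -1.09 (-1.16 to -1.02). Tgfbr1, its signaling partner, had 1798, 1319.8 and 1099.5 normalized counts in the untreated libraries and 2395, 1095 and 931 in the FGF8 libraries, and was 1.33-fold higher on day 0 and 1.21-fold and 1.18-fold lower afterwards. Tgfbr3, the co-receptor betaglycan, which presents TGF-beta2 to the type II receptor, had 7547, 8754 and 5518 normalized counts in the untreated libraries and 5593, 6722 and 4023 in the FGF8 libraries. It was lower in the FGF8 library of each day, by at most 1.37-fold, less than 2-fold throughout. Acvrl1 (ALK1), a type I receptor best known from endothelium, had 118, 213 and 365 normalized counts in the untreated libraries and 58.9, 70.2 and 215 in the FGF8 libraries. It was 1.995-fold lower on day 0, just under the 2-fold rule, 3.03-fold lower on day 3 and 1.70-fold lower on day 9. Of the 6 endothelial markers, Kdr and Tek were lower in the FGF8 library on each day, at 1288 and 326 normalized counts in untreated and 7.68 and 42.2 in FGF8-treated preadipocytes. Pecam1 and Cdh5 ran the other way on day 0, with 12.8 and 8.96 normalized counts after FGF8 against 1.47 and 4.41 in untreated cells, and Pecam1, Cdh5, Tie1 and Emcn had at most 12.8 normalized counts in any library. The part of these markers in the Acvrl1 values was not tested.

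BMP and GDF ligands were scarce, and the few with counts split between lower and transiently higher levels. Bmp4, a commitment factor for adipocyte precursors, had 75, 11 and 22 counts in the untreated libraries and 5, 2 and 3 counts in the FGF8 libraries. Its highest count lay in the untreated library of day 0, and the FGF8 library of that day was 17.2-fold lower (log2 fold change -3.91, 95% interval -5.77 to -2.82). On days 3 and 9 the mean of the pair was under the minimum of 20. Bmp2 had 0, 0 and 1 counts in the untreated libraries and 40, 0 and 1 counts in the FGF8 libraries. Its only sizeable count was in FGF8-treated preadipocytes, and against the floor of 3 counts per library it was at least 11.6-fold higher there. Bmp6 had 44, 23 and 35 counts in the untreated libraries and 67, 8 and 15 counts in the FGF8 libraries, and the interval of its day 0 ratio included equal levels (-0.16 to 0.99).

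The GDF genes followed separate courses. Gdf10, also called Bmp3b, had 52, 80 and 111 counts in the untreated libraries and 7, 56 and 20 counts in the FGF8 libraries. In normalized counts it was 8.52-fold lower on day 0, 2.59-fold on day 3 and 4.85-fold on day 9. Gdf5, a ligand of the BMP type I receptor BMPR1B, had 4, 41 and 96 counts in the untreated libraries and 0, 167 and 34 counts in the FGF8 libraries. It was almost absent from preadipocytes, 2.25-fold higher in the FGF8 library of day 3 (log2 fold change 1.15, 0.67 to 1.70) and 2.47-fold lower in that of day 9 (-1.27, -1.91 to -0.72). Gdf6 counts stayed at 7 or fewer.

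The BMP receptors other than Bmpr1b stayed within 2-fold on all 3 days. Bmpr1a had 5909, 3746 and 3064 normalized counts in the untreated libraries and 6023, 3195 and 2888 in the FGF8 libraries, and its 3 fold changes lay between 1.02-fold and 1.17-fold. Bmpr2, the type II receptor, differed by at most 1.29-fold on any day. Acvr1 (ALK2), a type I receptor for several BMPs, was 1.14-fold higher on day 0 and 1.65-fold and 1.56-fold lower on days 3 and 9. Bmpr1b had 81, 24 and 14 counts in the untreated libraries and 295, 0 and 0 counts in the FGF8 libraries. The FGF8 library of day 0 was the highest of all 6 and the later FGF8 libraries held none, so the gene was 3.17-fold higher on day 0 (log2 fold change 1.66, 1.31 to 2.04) and at least 14.5-fold lower on day 3 and at least 4.07-fold lower on day 9. The means of these later pairs were under 20 normalized counts, and they were not counted.

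The activin subunits were higher after acute FGF8 and lower once the cells differentiated. Inhba (chr13:16186373-16206206) encodes the subunit of activin A and had 956, 302 and 104 normalized counts in the untreated libraries and 1965, 52.6 and 30.9 in the FGF8 libraries. The FGF8 series opened as the higher of both and ended as the lower, with log2 fold changes of 1.04 (0.91 to 1.17), -2.50 (-2.91 to -2.14) and -1.71 (-2.30 to -1.22). Inhbb, the subunit of activin B, had 160.1, 188 and 71.0 normalized counts in the untreated libraries and 245, 30.2 and 24.4 in the FGF8 libraries. It followed the same order, 1.53-fold higher on day 0, which did not reach 2-fold, then 6.24-fold and 2.91-fold lower. Among the activin receptors, Acvr2b had 44.1, 140.0 and 174 normalized counts in the untreated libraries and 102, 204 and 280.5 in the FGF8 libraries. It was higher in the FGF8 library on each day, by 2.32-fold, 1.45-fold and 1.61-fold. Acvr1b (ALK4), the activin type I receptor, had 609.6, 767 and 799 normalized counts in the untreated libraries and 702, 371 and 567 in the FGF8 libraries and was 2.07-fold lower on day 3, the single day on which it passed 2-fold. Acvr2a, with 2507, 972 and 933 normalized counts in the untreated libraries and 1806, 862 and 825 in the FGF8 libraries, stayed within 1.39-fold.

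Among genes averaging 100 normalized counts or more in the pair, the lowest and the highest log2 fold change of the 44 genes on day 0 both belonged to antagonists, Fst and Grem1. Fst encodes follistatin, which neutralizes activin, and had 1767, 2307 and 1202 normalized counts in the untreated libraries and 106, 781 and 311 in the FGF8 libraries. The FGF8 library of day 0 was the lowest of the 6, 16.6-fold under the untreated one (log2 fold change -4.04, -4.39 to -3.73), and the difference was 2.95-fold on day 3 and 3.87-fold on day 9. Fst (chr13:114588731-114595521) was lower on day 0, when Inhba was higher, and on days 3 and 9 both genes were lower. Fstl1 (chr16:37597105-37656876) encodes a secreted glycoprotein related to follistatin and had 97836, 32356 and 13702 normalized counts in the untreated libraries and 21478, 10622 and 4412 in the FGF8 libraries. It was lower at each later day within a treatment and lower in the FGF8 library within each day, by 4.56-fold, 3.05-fold and 3.11-fold.

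Grem1 (chr2:113576509-113589000) encodes gremlin, an antagonist of BMP2 and BMP4. It had 516, 78.9 and 22.7 normalized counts in the untreated libraries and 3766, 39.3 and 10.6 in the FGF8 libraries. Its FGF8 library of day 0 exceeded all others, 7.31-fold above untreated (log2 fold change 2.87, 2.71 to 3.03), and on day 3 its level was 2.01-fold lower than untreated in normalized counts, with a log2 fold change of -0.99 after the pseudocount that left it just inside the rule. Bmp1, a protease that matures procollagen and releases BMPs from chordin despite its name, had 4026, 12464 and 8260.3 normalized counts in the untreated libraries and 4190.2, 5207 and 2353 in the FGF8 libraries. The untreated series had its highest level on day 3, at which the FGF8 series stood closer to its own value of day 0. Near-equal levels on day 0 (1.04-fold) were followed by 2.39-fold and 3.51-fold lower values. Bambi, a decoy receptor, was between -0.095 and 0.073 on the log2 scale on all days, and each of its counting intervals included 0.

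The intracellular SMADs differed little beside the ligands and antagonists. Of the 6 receptor-activated and common SMADs, 0 were at least 2-fold different on days 0 and 9, and Smad9 alone was lower on day 3. Smad3, the transducer of TGF-beta and activin, had 2268, 1179 and 1358 normalized counts in the untreated libraries and 1311, 695 and 772 in the FGF8 libraries. It was lower by a similar amount on all days, with log2 fold changes of -0.79, -0.76 and -0.81. Smad2, its close relative, had 2447, 1918 and 2067 normalized counts in the untreated libraries and 2770.4, 2197 and 2248 in the FGF8 libraries and was higher by 1.13-fold, 1.15-fold and 1.09-fold. Smad2 and Smad3 thus lay on opposite sides of the untreated level throughout. Smad4, the common partner, had 3219.7, 2613 and 2265 normalized counts in the untreated libraries and 4001, 2069 and 2201 in the FGF8 libraries. Smad5, a BMP transducer, had 3815, 2769 and 2291 normalized counts in the untreated libraries and 5254, 2467 and 2101 in the FGF8 libraries. Both stayed within 1.5-fold on all days. Smad1 had 924, 584 and 426 normalized counts in the untreated libraries and 1039.5, 397 and 389 in the FGF8 libraries and was 1.47-fold lower on day 3. Smad9 had 192, 234 and 101 normalized counts in the untreated libraries and 96.0, 87.7 and 93.5 in the FGF8 libraries, with 2.004-fold lower normalized counts on day 0 (log2 fold change -0.995, just inside the rule) and 2.67-fold lower on day 3.

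The inhibitory SMADs, which are induced by the pathway and feed back on its receptors, differed at single time points. Smad6, which acts mainly on BMP receptors, had 116, 630.0 and 591 normalized counts in the untreated libraries and 48.6, 489 and 663 in the FGF8 libraries. It was 2.39-fold lower directly after FGF8 (-1.24, -1.85 to -0.68) and within 1.5-fold of untreated later. Smad7, which acts on TGF-beta and BMP receptors, had 236, 271 and 211 normalized counts in the untreated libraries and 342, 131 and 175 in the FGF8 libraries. It was 1.45-fold higher on day 0, 2.07-fold lower on day 3 and 1.21-fold lower on day 9.

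The ID genes were all lower directly after FGF8 and mostly level with untreated cells later. Id4 (chr13:48414558-48419502) had 366, 709 and 327 normalized counts in the untreated libraries and 23.0, 204 and 295 in the FGF8 libraries. The FGF8 preadipocytes were the lowest library by far, 15.9-fold under untreated (log2 fold change -3.93, -4.77 to -3.30), and the difference was 3.48-fold on day 3 and 1.11-fold on day 9, where the interval (-0.35 to 0.052) included equal levels. Id2 (chr12:25143798-25147282) had 1313, 1941 and 1329.5 normalized counts in the untreated libraries and 406, 2168 and 1189 in the FGF8 libraries. It was 3.24-fold lower on day 0, 1.12-fold higher on day 3 and 1.12-fold lower on day 9. Id3 (chr4:135870808-135873066), the most abundant of them per kb, had 2452, 2825 and 2038 normalized counts in the untreated libraries and 849, 2224 and 2116 in the FGF8 libraries, and was 2.89-fold lower on day 0, 1.27-fold lower on day 3 and 1.04-fold higher on day 9. Id1 had 339, 766 and 295 normalized counts in the untreated libraries and 195, 847 and 522 in the FGF8 libraries. Its day 0 value was 1.74-fold lower, under the 2-fold rule, and its day 9 value was 1.77-fold higher in FGF8 cells. In this library pair the summed preadipocyte list was also lower, at 31766 against 132446 normalized counts, and its part in the ID values was not tested.

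Whether FGF8 shifted a gene on average over the days was tested by edgeR's quasi-likelihood fit. There the days take the place of replicates, and any response particular to a day adds to the error. Whether the shift was alike between days was not tested. Of 40 pathway genes tested, 0 rose and 3 fell, namely Tgfb2, Tgfbr2 and Fstl1, while among all 14569 genes 0.0206% rose and 1.25% fell. Tgfb2 fell by 2.70 on the log2 scale (SE 0.229, edgeR adjusted p = 0.0429, lower on 3 of 3 days). Fstl1 fell by 1.83 (SE 0.223, edgeR adjusted p = 0.0464) and Tgfbr2 by 1.30 (SE 0.162, edgeR adjusted p = 0.0479), both also lower on 3 of 3 days. Bmp4 and Smad3 came next, with log2 fold changes of -3.44 and -0.81 and edgeR adjusted p of 0.0605 and 0.0611, and did not pass. Tgfb3, Gdf10, Ltbp2 and Fst followed at log2 fold changes of -1.23, -2.17, -0.82 and -2.47 with edgeR adjusted p between 0.0879 and 0.103. At an unadjusted p under the same threshold, 13 of the 40 genes passed, against 23.3% of all genes. The DESeq2 Wald test called 11 of 39, all lower, against 9.1% of all genes lower and 3.6% higher.

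These calls rest on few degrees of freedom. Without the libraries of day 3 or those of day 9, edgeR called 0 pathway genes and 0 of all genes (of 14256 and 13743 tested). At an unadjusted p under the threshold it had 9 of 40 and 12 of 39 pathway genes, against 10.6% and 13.6% of all genes. Without day 0 it called 17 of 40, all lower, against 11.6% of all genes lower, adding among others Inhba, Inhbb, Bmp1, Ltbp1, Acvr1b and Bmpr1b. Over the 7 alternatives the adjusted p ranged from 4.15e-17 to 1.00 for Tgfb2, from 9.42e-15 to 1.00 for Fstl1 and from 1.54e-08 to 1.00 for Tgfbr2.

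How the pathway changed during differentiation, irrespective of FGF8, was asked by comparing day 3 with day 0 and day 9 with day 3 in the same fit, and both comparisons share the libraries of day 3. Between day 0 and day 3, 5 pathway genes rose and 12 fell by edgeR, beside 26.2% of all genes rising and 19.8% falling. Ltbp2 rose by 3.21 on the log2 scale (SE 0.227, edgeR adjusted p = 0.00263), Smad6 by 2.88 (SE 0.398, edgeR adjusted p = 0.00709) and Id1 by 1.65 (SE 0.421, edgeR adjusted p = 0.0303). Gdf5 and Acvr2b rose by 5.06 and 1.37. The genes that fell furthest were Grem1, with a log2 fold change of -4.90 (SE 1.19, edgeR adjusted p = 0.0265), Ltbp1 with -4.35 (SE 0.529, edgeR adjusted p = 0.00556), Inhba with -3.52 (SE 0.974, edgeR adjusted p = 0.0375) and Bmp4 with -2.64. Acvr1, Fstl1, Tgfbr2 and Acvr2a fell by between 1.16 and 1.46, and Smad1, Smad3, Bmpr1a and Smad5 by between 0.72 and 0.96. Over the alternatives, the adjusted p for Ltbp2 ranged from 1.62e-27 to 0.0202 and that for Ltbp1 from 8.23e-19 to 0.0528. The number of pathway genes called was 1 without the FGF8 library of day 3, 5 without the untreated library of day 3, 11 without the untreated library of day 9 and 31 without the untreated library of day 0, while 8.19%, 18.9%, 30.9% and 55.1% of all genes were called.

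Counted by fold within each treatment, 7 pathway genes were at least 2-fold higher and 10 at least 2-fold lower on day 3 than on day 0 in untreated cells, against 19.5% and 15.5% of all genes. In FGF8 cells, 9 were higher and 15 lower, against 24.1% and 22.0% of all genes. Id2, Id3, Id4, Fst and Gdf10 were at least 2-fold higher on day 3 than on day 0 in the FGF8 series and not in the untreated one. Their levels in the FGF8 library of day 0 were the lowest of their own 6 libraries. Tgfb1, Bmp1 and Acvr2b were at least 2-fold higher on day 3 in the untreated series and not in the FGF8 series. Acvr2b lay just under the rule there, at 102.4 and 203.6 normalized counts on days 0 and 3. Bmp2, Inhbb, Smad1, Smad5, Smad7 and Tgfbr1 were at least 2-fold lower on day 3 in the FGF8 series only, and Bmp4 in the untreated series only. The share of all genes that passed in a single series was not computed. Whether the series differed in these transitions was not tested. From day 3 to day 9, untreated cells had 1 higher (Ltbp2) and 11 lower pathway genes, against 8.77% and 4.42% of all genes, and FGF8 cells had 3 higher (Acvrl1, Ltbp2 and Tgfb1) and 8 lower, against 8.16% and 5.4%. Fstl1, Grem1, Ltbp1 and Tgfb2 were lower in both series. In the edgeR fit of day 9 against day 3, 0 pathway genes passed (0.0618% of all genes rose and 0.00686% fell), with 7 of 40 at an unadjusted p under the threshold, against 21.3% of all genes, and 6 of 40 called by the DESeq2 Wald test, against 9.42% of all genes. Without the untreated or the FGF8 library of day 0, edgeR called 14, against 21.1% and 20.6% of all genes.

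A wider list of 64 other ligands, receptors, regulators, antagonists and targets of the superfamily was read beside the 44. Of these, 40 passed the minimum on day 0, with 5 at least 2-fold higher and 10 lower, against 7.27% and 10.8% of all genes. On day 3, 43 passed, with 1 higher and 20 lower, against 3.8% and 12.1% of all genes. On day 9, 43 passed, with 0 higher and 14 lower, against 1.12% and 8.74% of all genes. The medians of the log2 fold changes were -0.26, -0.78 and -0.45 over the 3 days, beside 0.054, 0.081 and 0.083 over all genes. The genes named next differed at least 4-fold on a day while averaging 100 normalized counts or more, and each was lower after FGF8 on that day. Chrdl1, a BMP antagonist of the chordin family, had 4935 normalized counts in untreated and 389 in FGF8-treated preadipocytes, 12.7-fold lower, and was level on day 9. Thbs1, an activator of latent TGF-beta, was 4.05-fold, 4.34-fold and 3.15-fold lower, and Lrrc32 (GARP), which docks latent TGF-beta on the cell surface, was 2.92-fold, 7.46-fold and 4.97-fold lower. Among extracellular BMP modulators, Nbl1 was 7.74-fold lower on day 3 and Bmper 4.42-fold lower on day 0. The TGF-beta target Ccn2 was level on day 0 (log2 fold change 0.051, -0.31 to 0.41) and 6.25-fold lower on day 3. Eng, the co-receptor endoglin, and the BMP target Msx1 were 4.28-fold and 4.44-fold lower on day 9. In the shared edgeR fit, 47 of the 64 were tested, 0 rose, and Bmper, Nbl1 and Thbs1 fell by 1.75, 2.23 and 1.95 on the log2 scale (edgeR adjusted p of 0.0460, 0.0499 and 0.0429), against 1.25% of all genes falling.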

How the data were processed

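RNA of 6 mouse libraries was sequenced, 1 per combination of 2 treatments and 3 days, with a stranded mRNA kit. The authors used TrimGalore for trimming, HISAT2 for alignment to GRCm39 and featureCounts for counting per gene, and the deposited values are raw counts per gene symbol. Tool versions, annotation, strand setting and the treatment of reads with several matches are not given in the sources used here. Groups follow the sample labels.

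Counts were divided by DESeq2 1.42.0 median-of-ratios size factors over the 6 libraries. Fold changes are differences of log2(normalized count + 1), which understates the change of low genes, and "N-fold" gives the ratio of normalized counts. Ratios of counts have 95% exact binomial intervals, and a library without counts was set to a floor of 3 counts. Both cover counting error only, and depth limits genes with few counts most. No p-value is given between 2 libraries.

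The additive fit of day and treatment used edgeR 4.0.16 (glmQLFit, glmQLFTest, two-sided, TMM, filterByExpr, 2 residual degrees of freedom, Benjamini-Hochberg over all genes, adjusted p under 0.05), with standard errors from its F statistic. The edgeR fit was run on simulated counts with known changes. These were drawn at a common dispersion, with no FGF8 response that differed between days, so they do not bear on such responses. Exon lengths and positions came from GENCODE M39 on GRCm39, in which all 44 symbols were found, and promoter windows from RefSeq on GRCm38.p6. Alternatives were TMM, total-count and within-pair scaling, a pseudocount of 0.5 or 5, a minimum mean of 100 or none, a 1.5-fold rule, DESeq2's Wald test, fits without a block, and leaving out each day or library. R 4.3.3 and Python 3.11.15 were used.

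The 44 genes, the wider list, the markers and the naming rule (2-fold at a minimum mean of 20, called by the shared fit, or abundant per kb in their group; for the wider list 4-fold at a minimum mean of 100) were chosen with earlier results of these data known. The result of 1 gene of the wider list is not reported here.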

Additional observations from a re-analysis of the deposited data

Results flagged for a closer look

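Inhba had log2 fold changes between FGF8 and untreated libraries of 1.04 on day 0, -2.50 on day 3 and -1.71 on day 9, opposite directions of at least 2-fold on different days. Gdf5 had 1.15 on day 3 and -1.27 on day 9, again in opposite directions. With 1 library per condition the difference between days was not tested for either gene, and Gdf5 rests on 34 to 167 counts per library on these days.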

How the results depend on the processing

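The labels give no replicate numbers, so none could serve as a block, and the shared fit paired the libraries of a day through its day term. No log2 fold change of at least 2-fold turned its direction among the named genes, and the within-2-fold value of Id3 on day 9 went from 0.054 to -0.011 with size factors within the pair. Of the recomputed values, 369 of 385 moved by less than their counting interval and 16 moved further. Rescaling shifted a value with more than 3 counts in both libraries by at most 0.11, for Fstl1 on day 3 with total counts (-1.71 against -1.61). The pseudocount shifted such a value by at most 0.57, for Bmp4 on day 0 with 5 (-3.34 against -3.91). Total-count scaling moved the median of all genes on day 3 from 0.081 to -0.026. With a minimum mean of 100 normalized counts, 3 pathway genes instead of 5 were higher on day 0, 0 instead of 1 on day 3, and 7 instead of 11 were lower on day 9. The 1.5-fold rule gave 2 higher on day 9 instead of 0. The shares of all genes under these other rules were not computed.

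For the FGF8 effect shared by the days, pathway genes called numbered 1 with RLE size factors, 5 with no filter, 11 with DESeq2 and 0 with no day block, instead of 3, and all genes called 110, 419, 1703 and 0, instead of 185. Leaving out each day gave 0 to 17 pathway genes and 0 to 2230 genes. For day 3 against day 0, no treatment block gave 9 pathway genes and 4436 genes, instead of 17 and 6707, and leaving out each library gave 1 to 31 pathway genes and 1214 to 8454 genes. For day 9 against day 3, no filter gave 1 pathway gene and 268 genes, DESeq2 gave 6 and 1334, and no treatment block gave 3 genes, instead of 0 and 10. Leaving out each library there gave 0 to 14 pathway genes and 0 to 3238 genes. Dropping a library or a day leaves fewer samples, and calls rose in some of these settings and fell in others. The cause of the shifts was not tested.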
